A study of Mus musculus with 96 samples.

Results

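The amylase genes are a cluster on mouse chromosome 3 that encodes the starch-digesting α-amylases. They were taken as the 6 genes Amy1, Amy2a1, Amy2a2, Amy2a4, Amy2a5 and Amy2b among the 21990 genes of the expression table, of which 20155, all 6 included, had values in every library. These genes were chosen from measured values, because amylase had been seen to be low in islet preparations of mice on the high-fat diet (HFD), so the contrast of HFD with the chow diet (CD) in islets is described here without a test, and tests are given for contrasts that did not enter this choice. The CD islet libraries were one arm of the contrast used in the choice and also enter tests between tissues and between weeks.

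RNA sequencing was done on islets and liver of the same 48 male C57BL/6N mice, a common inbred laboratory strain, bought at 4 weeks of age. CD mice received a chow with 13.5% fat, HFD mice a diet with 60% fat, and 4 mice of each diet were sampled after 4, 8, 12, 16, 20 and 24 weeks. This gave 96 libraries, 48 of each tissue, in 12 groups of 4 per tissue, and animals of later weeks were also older. Islets were released from the pancreas by collagenase, separated on a density gradient and picked by hand 2 times to keep acinar cells out, and each liver sample came from the same region of the organ. The submitters judged islet purity by the transcripts of Amy1a, which RefSeq lists as a synonym of Amy1, and of the ductal keratin Krt19. Levels are given in FPKM, a fragment density scaled to the transcript's length and to the library's mapped fragments, so that genes can be compared per length.

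α-Amylase cleaves the α-1,4 bonds inside starch and glycogen. In mice, Amy2 genes are expressed in acinar cells of the exocrine pancreas, which store amylase with proteases and lipases in zymogen granules, whereas Amy1 is the salivary amylase gene and is also transcribed in liver. Pancreatic amylase synthesis is known to follow dietary starch and insulin, while pancreatic lipases follow dietary fat. Islets lie within acinar tissue, and islet preparations can carry acinar transcripts.

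All 6 genes lie on the minus strand of chromosome 3. In the RefSeq annotation of GRCm38.p6, Amy2b spans 113147656-113156727, Amy2a5 113249178-113258699, Amy2a4 113279837-113291449, Amy2a2 113345049-113356658, Amy2a1 113528095-113532428 and Amy1 113555952-113577750. GENCODE vM21 lists Amy2b as an unprocessed pseudogene and the other members as protein-coding genes. The pancreatic Amy2a copies are nearly identical, and the first 90 bases of the coding sequence of Amy2a5 and of Amy1 (GENCODE vM21, GRCm38) are shown because they set what short reads can tell apart, with capitals at the bases where Amy1 differs from Amy2a5. The stretch of Amy2a5 lies in exon 1 of 10 and that of Amy1 in exon 2 of 11.
Amy2a5, chr3:113258593-113258682, minus strand: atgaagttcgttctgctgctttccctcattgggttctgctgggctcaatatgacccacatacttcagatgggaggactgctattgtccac
Amy1, chr3:113569923-113570012, minus strand: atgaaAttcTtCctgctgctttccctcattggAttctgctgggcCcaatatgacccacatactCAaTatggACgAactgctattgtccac
The 1524 coding bases of Amy2a5 were identical to those of Amy2a4 and of Amy2a2, and the 735 annotated coding bases of Amy2a1 were identical to the corresponding bases of Amy2a5. Amy1 matched Amy2a5 at 1374 of 1523 aligned coding bases (90.2%), with 11 differences in the 90 bases shown. Reads from the coding sequence can therefore separate Amy1 from the Amy2a genes where the bases differ but not the Amy2a copies from each other, and the FPKM of single Amy2a copies are uncertain. The rows of the expression table also reach beyond single loci: those of Amy2a5 (10 transcripts) and Amy2a4 (44 transcripts) both span 113147656-113532428 and that of Amy1 spans 113345049-113577750, so a row can hold fragments of other copies. For these reasons the 5 Amy2 members were also summed. Amy2a3, a further Amy2 gene of the cluster at no more than 1.53 FPKM in islets, is no member and was left out of the sum.

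Of the promoters, those of Amy2a5, Amy2b and both annotated Amy1 starts are shown as the 250 bases before the RefSeq start (GRCm38.p6, minus strand). They were chosen since the rows of Amy2a5 and Amy2b moved together in islets and Amy1 had the higher level in liver. Capitals mark 4 motifs searched on both strands: TATAAA, the TATA box; CACCTG and CAGCTG, forms of the E-box; and TGGGAA, the core bound by Rbpj-type factors of the acinar PTF1 complex.
Amy2a5, chr3:113258700-113258949: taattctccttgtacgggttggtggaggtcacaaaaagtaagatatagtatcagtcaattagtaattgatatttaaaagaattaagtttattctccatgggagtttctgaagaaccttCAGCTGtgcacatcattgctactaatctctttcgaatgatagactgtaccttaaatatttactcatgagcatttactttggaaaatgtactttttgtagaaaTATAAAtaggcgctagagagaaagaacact
Amy2b, chr3:113156728-113156977: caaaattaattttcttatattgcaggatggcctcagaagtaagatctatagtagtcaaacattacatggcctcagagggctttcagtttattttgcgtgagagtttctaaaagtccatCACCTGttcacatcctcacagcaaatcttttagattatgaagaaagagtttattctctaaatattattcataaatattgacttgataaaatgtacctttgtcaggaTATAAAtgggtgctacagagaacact
Amy1 upstream start, chr3:113577751-113578000: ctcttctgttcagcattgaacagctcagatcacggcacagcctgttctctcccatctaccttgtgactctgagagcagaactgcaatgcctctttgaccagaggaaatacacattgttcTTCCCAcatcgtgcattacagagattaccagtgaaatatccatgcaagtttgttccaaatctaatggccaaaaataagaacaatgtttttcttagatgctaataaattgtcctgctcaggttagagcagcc
Amy1 downstream start, chr3:113574763-113575012: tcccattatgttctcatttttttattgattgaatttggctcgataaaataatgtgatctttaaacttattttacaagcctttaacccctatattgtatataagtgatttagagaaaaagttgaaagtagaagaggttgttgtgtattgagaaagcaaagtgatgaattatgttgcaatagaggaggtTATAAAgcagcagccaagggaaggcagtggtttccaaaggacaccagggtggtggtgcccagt
Amy2a5 and Amy2b each held a TATAAA, beginning 30 and 26 bases before the start, and an E-box beginning 132 bases before it, which read CAGCTG in Amy2a5 and CACCTG in Amy2b. The downstream Amy1 window held a TATAAA at 63 bases before its start, and the upstream Amy1 window held only TGGGAA, on the other strand. Among all 32851 windows of this length, 12.4% held TATAAA, 17.2% CACCTG, 13.0% CAGCTG and 21.6% TGGGAA. The windows of Amy2a4 and Amy2a2 were identical over 250 bases and shared a long run of bases with that of Amy2a5, while their annotated starts lie further from the first codon, and none of the 4 motifs was found in them. The table gives Amy1 as 1 gene, so its starts were not measured separately.

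In islets, the row of Amy2a5 held most of the amylase level and was one of the most abundant of the preparation. It ranged from 1018 to 57147 FPKM over the 48 islet libraries (median 6634), which placed it between the 3rd and the 14th highest gene of its library. The row of Amy2a5, which spans the loci of other copies, made up 95.3% to 98.1% of the summed Amy2 level. Amy2a4 followed at 48.0 to 1404 FPKM, and Amy2b (0.11 to 23.5), Amy1 (0.36 to 15.7), Amy2a1 (0 to 6.80) and Amy2a2 (0.03 to 5.75) were far lower. The rows of Amy2a4, Amy2b and Amy1 followed that of Amy2a5 from library to library. Their Pearson correlations with it over the 48 islet libraries, on the log2(FPKM + 1) scale, were 0.96, 0.95 and 0.94. These points share their libraries, and Amy2a4 shares its coding sequence with Amy2a5. The row of Amy1 also spans the loci of Amy2a2 and Amy2a1, and the rows of Amy2a5 and Amy2a4 span that of Amy2b. At levels so far below Amy2a5, a few of its fragments in the rows of Amy1 or Amy2b could give such correlations. The part of such fragments was not tested, so the values do not show that distinct genes were expressed together.

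The liver showed the opposite makeup. Amy1 was present in every liver at 56.9 to 173 FPKM (median 119), between the 436th and the 1220th highest gene of its library. Amy2a2 was listed at 0 in all 48 livers, Amy2a1 in 47 and Amy2b in 44 of them, and none of these exceeded 0.10 FPKM. Amy2a4 ranged from 0.05 to 2.05 FPKM. Amy2a5 was listed at 0 in 23 livers, was under 1 FPKM in 36, and reached 1 FPKM or more in 12.

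In CD mice, all 6 members differed between islets and liver by limma on log2(FPKM + 1) with Benjamini-Hochberg adjustment over all genes tested. With 24 libraries of each tissue this comparison called 95.4% of the genes tested, so a call alone says little about a gene. Amy1 had an islet minus liver difference of -4.36 ± 0.10 (log2, SE; adjusted p = 1.3e-33), and every CD liver (56.9 to 172 FPKM) exceeded every CD islet library (1.04 to 15.7 FPKM). Amy2a5 differed by 12.83 ± 0.27 in the other direction (adjusted p = 3.5e-34) and Amy2a4 by 7.94 ± 0.14 (adjusted p = 1.9e-37). Of the 24 CD livers, 17 held under 1 FPKM of Amy2a5 and 20 under 1 FPKM of Amy2a4. The size of both differences therefore depends on the 1 added before the log, which the SEs do not cover. Amy2b, Amy2a1 and Amy2a2 were also called higher in islets. They did not exceed 0.10 FPKM in any CD liver and passed the filter of 1 FPKM through islets alone. Their direction was therefore fixed in advance, and their calls are no test. As they are listed at 0 in nearly all CD livers, no fold is given. The direction of each member was the same after median ratio scaling, which lowered the median islet minus liver difference of all genes from 0.66 to 0.29. Of the other acinar lists, all 15 proteases, 6 lipases and 6 further secretory products tested were higher in islets, as were the acinar transcription factors Ptf1a, Rbpjl and Bhlha15, while Nr5a2 was lower. Of all 13074 genes tested, 8746 were called higher in islets and 3721 lower. Apart from Cela1, the listed enzymes and secretory products had medians under 1 FPKM in liver. Their direction was thus largely fixed by the filter. Of 17 starch and glycogen genes, 7 were higher and 10 lower. Tissue markers matched the labels: summed insulin, glucagon and other endocrine markers were 597186 to 1019480 FPKM in islets, and summed hepatocyte markers were 38001 to 80414 FPKM in liver and 3.05 to 123 in islets.

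The islet level of Amy2a5 varied over both the weeks and the diets. In CD mice at week 4, Amy2a5 was 5298, 9062, 5389 and 13629.5 FPKM, and in HFD mice 1784, 3245, 4936 and 4194 FPKM. At week 8 it was 8197, 8133, 9994 and 10987 in CD and 1018, 6505, 7884 and 17405 in HFD mice. The HFD libraries lay below all CD libraries at week 4, whereas at week 8 they lay on both sides of the narrow CD range, with HFD217 the highest and HFD211 the lowest of the 8. Week 12 gave the highest CD values, 57147, 26632, 23699 and 33842, against 6004, 9074, 2367 and 5187 in HFD mice. At week 16 the values were 30904, 32671, 17993 and 21474 in CD and 6267, 1701, 5742 and 4172 in HFD mice. In both weeks the groups were far apart, with the lowest CD library above the highest HFD library. At week 20 the CD libraries themselves were low, with 2124, 7231, 4603 and 5665 FPKM, and the HFD libraries, with 6763, 3367, 4104 and 5499.7 FPKM, fell within their range. At week 24 the values were 11634, 17207, 13404 and 34505 in CD and 9552, 4809, 4215 and 4579 in HFD mice, again without overlap.

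**Figure D1:**
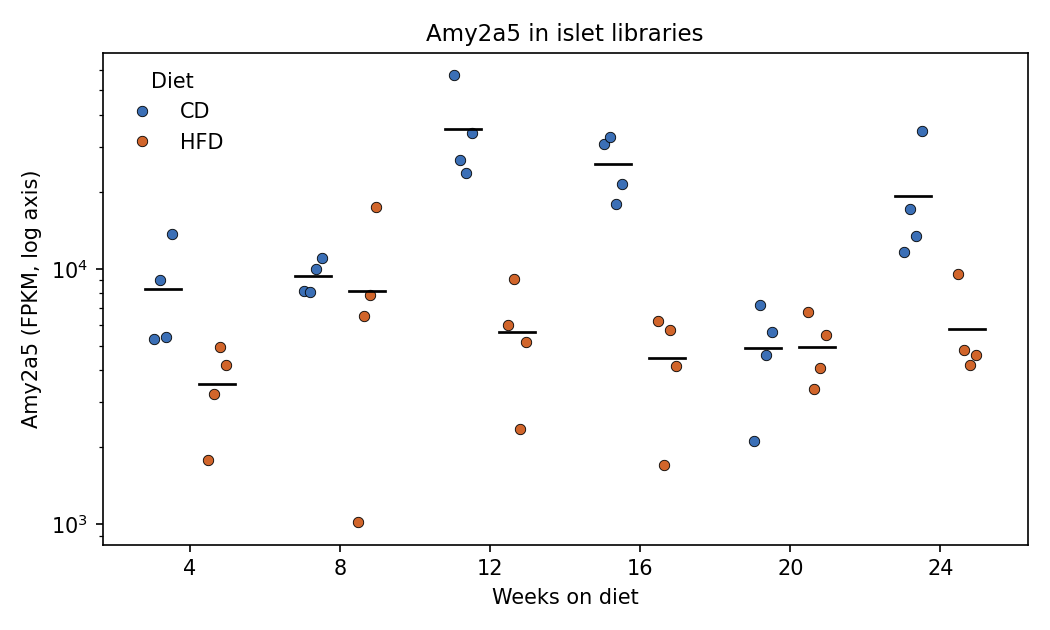
Amy2a5 in 48 islet libraries (FPKM, log axis) by weeks on diet; each point is 1 mouse and each bar the mean of 4. HFD points lie below all CD points at weeks 4, 12, 16 and 24 and overlap them at weeks 8 and 20.

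In order of the group means, Amy2a5 was highest in CD mice at weeks 12 (35329.9 ± 15157 FPKM, SD, n = 4), 16 (25761 ± 7139.8) and 24 (19188 ± 10473). CD at week 8 (9327 ± 1403) and week 4 (8345 ± 3935) followed, then HFD at week 8 (8203 ± 6814), week 24 (5789 ± 2521), week 12 (5658 ± 2759) and week 20 (4933 ± 1507). The lowest means were those of CD at week 20 (4906 ± 2145), HFD at week 16 (4470.5 ± 2049.7) and HFD at week 4 (3539.7 ± 1359.7). No 2 neighbours in this order were further apart than the larger of their SDs. The HFD means spanned 3539.7 to 8203 FPKM and the CD means 4906 to 35329.9 FPKM.

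On the log2(FPKM + 1) scale, the HFD minus CD difference of Amy2a5 was -1.22 ± 0.46 (SE of 4 and 4 libraries) after 4 weeks and -0.75 ± 0.87 after 8. In weeks 12 and 16 it was -2.71 ± 0.49 and -2.64 ± 0.48, and in weeks 20 and 24 it was 0.09 ± 0.44 and -1.68 ± 0.44. The sum of the Amy2 genes gave -1.21, -0.74, -2.71, -2.63, 0.09 and -1.68 in the same weeks. The direction at weeks 8 and 20 rested on single libraries. For the Amy2 sum, the week 8 difference of -0.74 became 0.07 without HFD211 and -1.29, with no overlap, without HFD217, and the week 20 difference of 0.09 became -0.26 without CD501 and -0.07 without HFD511. In such bulk samples, fewer acinar cells and less amylase RNA per acinar cell cannot be told apart.

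The other members lay lower in the same weeks as Amy2a5. Amy2b differed by -2.23 ± 0.35, -2.23 ± 0.34 and -2.27 ± 0.43 in weeks 12, 16 and 24. In week 24 its HFD libraries held 0.66 to 2.64 FPKM and its CD libraries 6.81 to 9.50 FPKM apart from CD608 with 22.5. Amy1 differed by -1.99 ± 0.36, -1.77 ± 0.20 and -0.90 ± 0.35 in weeks 12, 16 and 24. All 4 HFD libraries lay below all 4 CD libraries for all 6 members at weeks 12, 16 and 24, for 2 of the 6 (Amy2a5 and Amy2a1) at week 4 and for none at weeks 8 and 20. Of the genes that passed the filter on low values in those weeks (1 FPKM or more in no fewer than 4 of 8), 3.47%, 8.77% and 2.41% did so at weeks 12, 16 and 24, and 2.72%, 15.8% and 9.76% at weeks 4, 8 and 20. The filter was passed by 4 members at weeks 4 and 20, by 5 at weeks 8, 12 and 24 and by all 6 at week 16. Amy2a1 failed it in every week but week 16, and Amy2a2 failed it at weeks 4 and 20. The shares do not cover these members in those weeks. The choice of these genes used this contrast and their rows can hold fragments of other copies, so these counts are a description.

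Amylase was next set beside the other secretory products of the acinar cell, 16 proteases and 6 lipases in all. Among the proteases, trypsinogens (Prss2, Try4), chymotrypsinogens (Ctrb1), elastases (Cela2a) and carboxypeptidases (Cpa1) digest protein, and among the lipases pancreatic lipase (Pnlip), its cofactor colipase (Clps), carboxyl ester lipase (Cel) and the phospholipase Pla2g1b digest fat. Of these 22 enzymes, all HFD libraries lay below all CD libraries for 1 (Pla2g1b) in week 4, 14 in week 12, 19 in week 16 and 2 (Pla2g1b and Try4) in week 24, and for none in weeks 8 and 20. In week 20, Ctrb1, Cela3b and Clps lay higher in all HFD than in all CD libraries. The same held in week 16 for Prss1, a gene with a median of 0.48 FPKM in islets. The shares of all genes lying lower are those given above for these weeks. The share lying higher was not counted, so the genes lying higher cannot be set against it. As background on this contrast, limma called 0%, 5.27%, 4.53%, 8.45%, 4.74% and 8.3% of all genes tested in the weeks from 4 to 24 at an adjusted p under 0.05, and an unadjusted p under 0.05 was found for 854 of 11569 genes in week 4.

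The mean of the 22 enzymes on the log2(FPKM + 1) scale had HFD minus CD differences of -0.67 ± 0.39, 0.24 ± 0.71 and -1.45 ± 0.51 in weeks 4, 8 and 12, and of -1.47 ± 0.43, 0.93 ± 0.43 and -0.61 ± 0.35 in weeks 16, 20 and 24. In every week the difference of the Amy2 sum was more negative than that of the enzyme mean. The enzyme mean itself lay lower in HFD islets in 4 weeks and higher in week 20, and at week 8 its difference was smaller than its SE. The summed acinar markers, 9 genes of which none was at 0 in any islet library, ranged from 28772 to 69026 FPKM in CD and 5402 to 26199 in HFD mice at week 12, and from 3101 to 8348 in CD and 7272 to 18866 in HFD mice at week 20. The acinar transcription factor Ptf1a was between 0.08 and 3.32 FPKM. The 6 ductal markers summed to 129.8 to 193 FPKM in CD and 118.3 to 211.7 in HFD islets. At week 24 the sum was 143.6 to 154.5 in CD and 166.9 to 211.7 in HFD islets. Krt19 lay lower in all HFD than in all CD libraries in weeks 8, 16 and 20. The same held for Sox9 in weeks 16, 20 and 24 and for Cftr in week 16, while Spp1 lay higher in week 24. Of all genes passing the filter, 15.8%, 8.77%, 9.76% and 2.41% lay lower in this way in weeks 8, 16, 20 and 24. For Spp1, the share of genes lying higher was not counted. The summed level of the 7 endocrine markers, most of it insulin, was higher in all HFD than in all CD libraries in weeks 12 (604337 to 653829 FPKM in CD, 794694 to 935292 in HFD) and 16 (618296 to 707714 and 735693 to 929041). In both weeks Iapp, Ins1 and Ins2 lay higher in all HFD libraries, while the hormone genes Gcg, Ppy and Sst lay lower in all of them and Chga overlapped. Among all genes passing the filter, 3.47% and 8.77% lay lower in weeks 12 and 16, and the share lying higher was not counted. With insulin genes left out of the library total, the HFD minus CD difference of the Amy2 sum was -1.17, -0.75 and -2.41 in weeks 4, 8 and 12 and -2.43, 0.02 and -1.65 in weeks 16, 20 and 24. The part of the other markers in the amylase values was not tested.

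The level of the Amy2 sum relative to these enzymes within the same library was then computed as log2(Amy2 sum + 1) minus the mean log2(FPKM + 1) of the 22 enzymes. At week 4 this relative level was 5.14, 5.38, 5.25 and 5.31 in CD and 4.30, 5.03, 4.66 and 4.91 in HFD mice. At week 8 it was 5.39, 5.41, 5.60 and 5.49 in CD and 4.12, 4.49, 4.35 and 5.01 in HFD mice. Although the amylase level itself overlapped at week 8, the relative level did not. At week 12 the values were 5.18, 4.998, 5.06 and 4.89 in CD and 3.70, 3.76, 3.88 and 3.74 in HFD mice, and at week 16 5.73, 5.73, 5.72 and 5.50 in CD and 4.56, 4.38, 4.61 and 4.45 in HFD mice. At week 20, with HFD amylase within the CD range and the other enzymes higher, the relative level was 4.76, 5.20, 4.87 and 5.02 in CD and 4.01, 4.44, 3.93 and 4.13 in HFD mice. At week 24 it was 5.29, 5.60, 5.44 and 5.86 in CD and 4.51, 4.62, 4.30 and 4.48 in HFD mice.

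**Figure D2:**
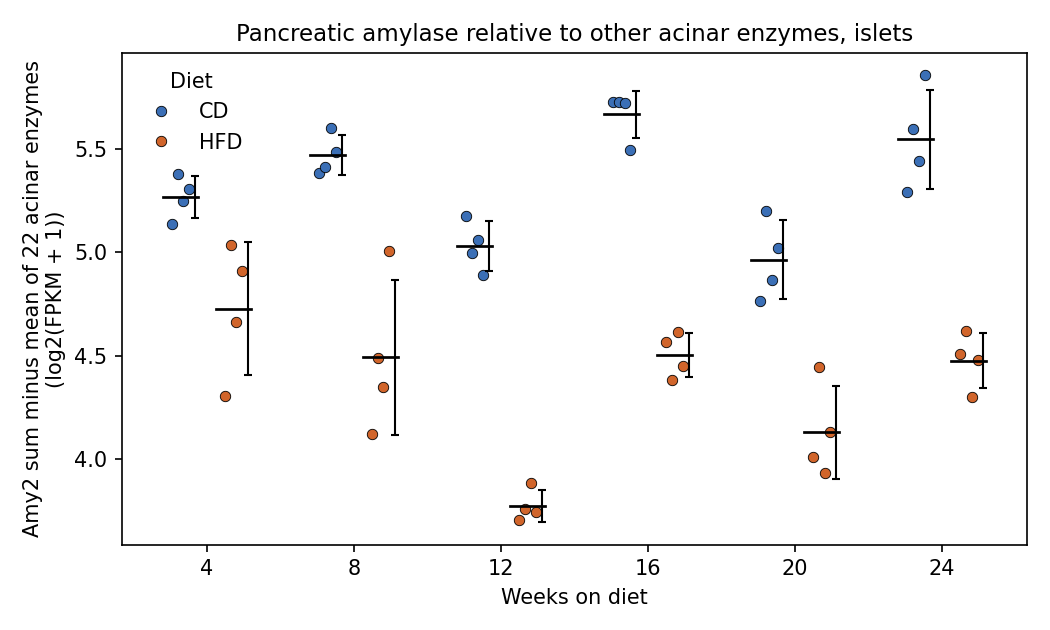
Relative amylase level in 48 islet libraries, as log2(Amy2 sum + 1) minus the mean log2(FPKM + 1) of 22 other acinar enzymes, by weeks on diet; points are mice, lines means and whiskers SD of 4. All HFD points lie below all CD points of the same week in the 6 weeks.

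In all 6 weeks the 4 HFD libraries lay below the 4 CD libraries of the same week. The HFD minus CD difference of the relative level was -0.54 ± 0.17, -0.98 ± 0.19 and -1.26 ± 0.07 in weeks 4, 8 and 12, and -1.17 ± 0.08, -0.84 ± 0.15 and -1.07 ± 0.14 in weeks 16, 20 and 24. The spread between mice of a group was also smaller for the relative level (SD between 0.08 and 0.38) than for the Amy2 sum (SD between 0.22 and 1.73). The relative level varied between weeks as well, in CD mice from a mean of 4.96 at week 20 to 5.67 at week 16. Week 12 of the HFD mice, at 3.77 ± 0.08, stood below every other group. With the lipases alone as reference the difference of week 4 was -0.34 and the groups overlapped, while in the other 5 weeks they did not. Because the genes were chosen on this contrast, no test is given.

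Within the acinar genes, amylase stood near the low end of the HFD minus CD differences once the enzyme mean was taken off. Averaged over the 6 weeks, the relative difference was -1.15 for Pla2g1b, -0.98 for Amy2a5, -0.87 for Amy2b, -0.78 for Amy2a4, -0.72 for Gp2, a membrane glycoprotein of the zymogen granule, and -0.51 for Amy1. Pla2g1b, Amy2a5, Amy2a4, Gp2 and Amy1 were below the enzyme mean in all 6 weeks and Amy2b in 5. Try4 (-0.45), the granule lectin Zg16 (-0.45) and Cela2a (-0.37) came next, each below in all 6 weeks. The 6 lipases were spread over the whole order, with Pla2g1b lowest, Pnliprp2 at -0.15 and below the enzyme mean in 5 weeks, and Pnlip at 0.01, Cel at 0.06, Pnliprp1 at 0.18 and Clps at 0.43. Prss2 (0.24), Try10 (0.25), Clps and Sycn, the granule protein syncollin (0.63), were above the enzyme mean in all 6 weeks. Amy2a1 (-0.29) and Amy2a2 (-0.27), with medians of 0.43 and 0.81 FPKM, were below it in 3 and 4 weeks, and the highest value, 1.20 for Prss1, belongs to a gene with a median of 0.48 FPKM.

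**Figure D3:**
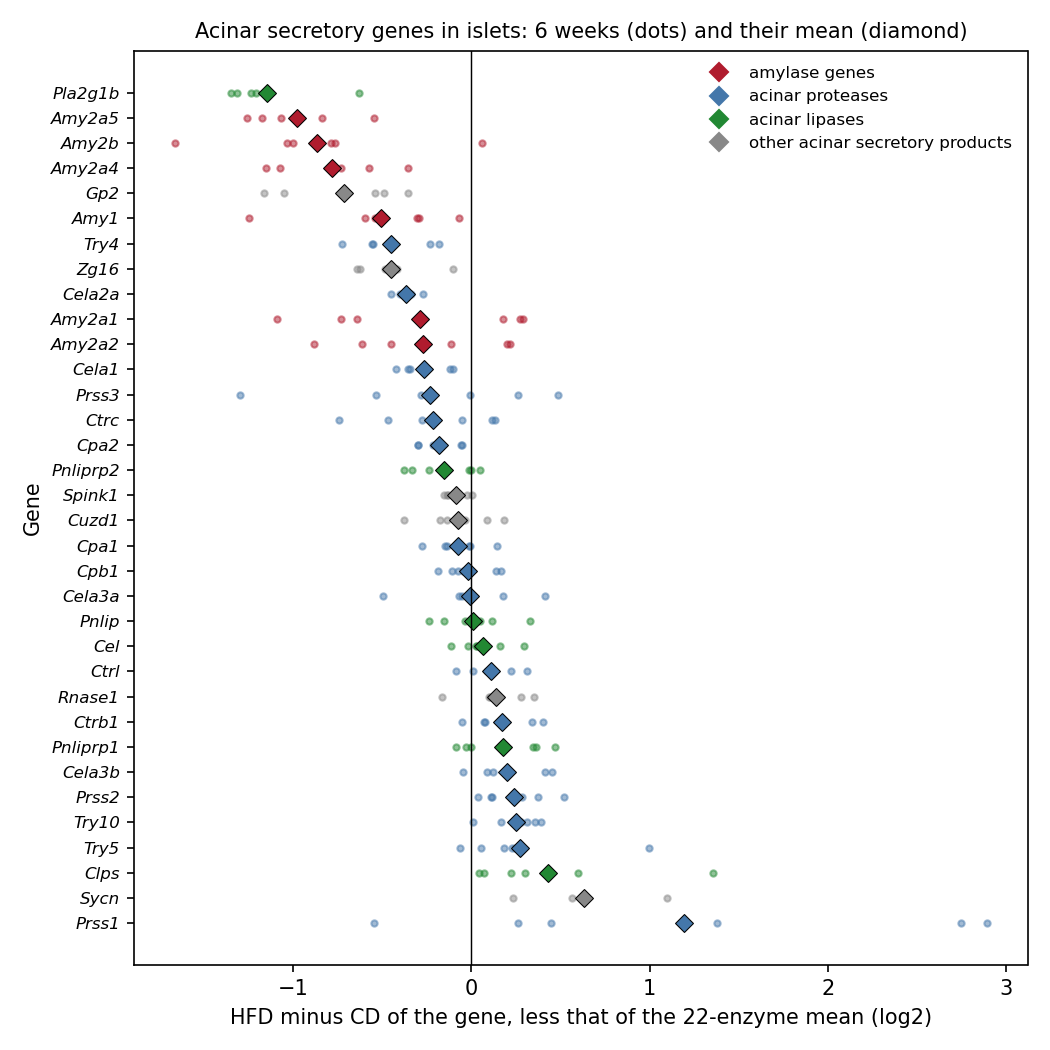
HFD minus CD difference (log2(FPKM + 1)) of 34 acinar secretory genes in islets, less that of the mean of 22 enzymes; dots are the 6 weeks and diamonds their mean. Amy2a5 averages -0.98 and lies between Pla2g1b (-1.15) and Amy2b (-0.87), with Pnlip near 0 and Sycn at 0.63.

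The genes whose islet level was most like that of the Amy2 sum included 5 genes of the acinar lists, namely Pla2g1b, Gp2, Ctrc, Zg16 and Try4. Over the 48 islet libraries and 11927 genes that reached 1 FPKM in 12 or more of them, the 10 highest Pearson correlations outside the family were those of Pla2g1b (0.97), Gp2 (0.96), Ctrc (0.95), Zg16 (0.95), the pancreas-specific disulfide isomerase Pdia2 (0.95), Serpini2 (0.94), Try4 (0.94), 2210010C04Rik (0.94), Tmed11 (0.94) and Tff2 (0.93). The mean of the 22 enzymes correlated with the Amy2 sum at 0.88. The ductal keratin Krt19, at 0.40 to 13.8 FPKM, correlated with Amy2a5 at 0.24. Points share library, week and diet, so these values are a description.

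Time on study was tested in CD mice, in a contrast that the choice of genes did not use although these islet libraries entered it as the CD arm. Late weeks (16, 20 and 24) were compared with early weeks (4, 8 and 12) in the 24 CD islet libraries, where 48.2% of the genes tested were called. Amy2a5 had a late minus early difference of -0.09 ± 0.24 (adjusted p = 0.77), Amy2a4 of 0.01 ± 0.26 (adjusted p = 0.99), Amy2b of 0.32 ± 0.24 (adjusted p = 0.28), Amy1 of 0.22 ± 0.18 (adjusted p = 0.35) and Amy2a2 of 0.24 ± 0.17 (adjusted p = 0.26). None of these passed the test. The Amy2a5 means were high in weeks 12, 16 and 24 and low in weeks 4, 8 and 20. Amy2a1 rose by 0.53 ± 0.21 (adjusted p = 0.043), a gene at 0.16 to 6.80 FPKM in these libraries whose annotated coding sequence lies whole within that of Amy2a5, and its call was lost when any of 12 of the 24 libraries was left out. Of the 22 acinar enzymes, Cela3a and Try5 rose and Cela1, Clps and Pnlip fell in the late weeks. None of the 6 further secretory products and none of the 3 transcription factors tested was called. The list medians, -0.27 over the proteases and -0.29 over the lipases tested, compare with 0.06 over all genes.

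In liver, Amy1 passed the test between the diets in none of the 6 weeks. At week 4 Amy1 was 76.6, 56.9, 57.0 and 117 FPKM in CD and 76.1, 89.1, 111 and 66.0 in HFD mice. At week 8 it was 149, 129, 118.2 and 115 in CD and 173, 144, 165 and 141 in HFD mice. The groups overlapped in both weeks, and the week 8 livers were higher than those of week 4, but for CD106 at 117 FPKM. At week 12 the values were 115, 137, 124 and 144 in CD and 137, 120.0, 113.5 and 129 in HFD mice, and at week 16 156, 172, 151 and 120.4 in CD and 171, 145, 133 and 129 in HFD mice. At week 20 they were 129, 112.6, 111 and 103.2 in CD and 124, 109.5, 67.9 and 92.0 in HFD mice, and at week 24 96.6, 100.6, 108 and 100.6 in CD and 121, 129, 84.0 and 65.6 in HFD mice. In all these weeks the diets overlapped. The spread was widest in HFD mice at week 24 (SD 30.1) and in CD mice at week 4 (SD 28.3).

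**Figure D4:**
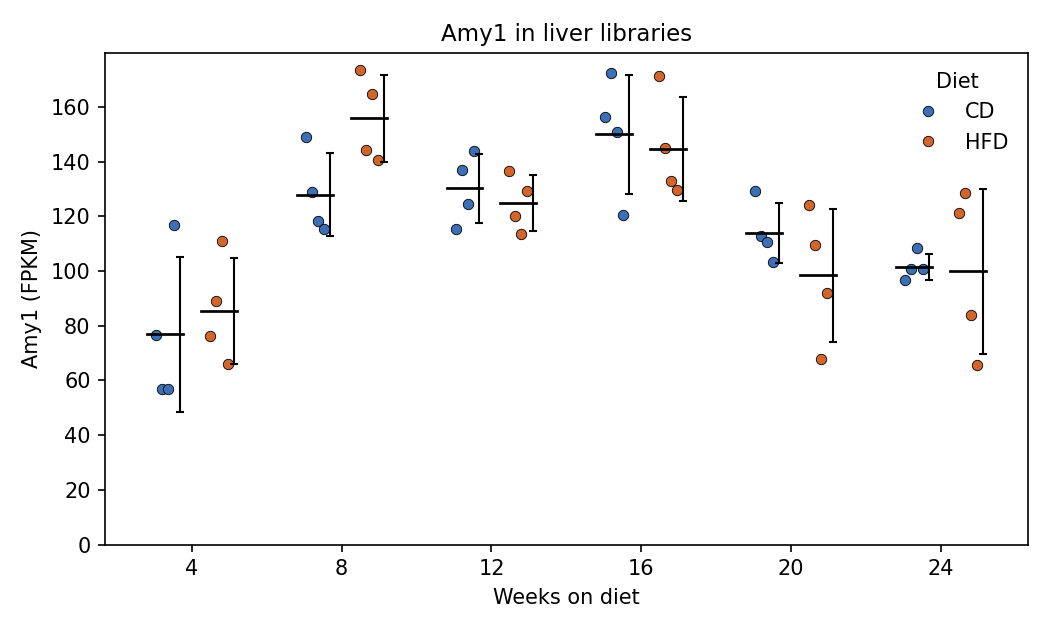
Amy1 in 48 liver libraries (FPKM, linear axis from 0) by weeks on diet; points are mice, lines means and whiskers SD of 4. CD and HFD points overlap in each of the 6 weeks, and both diets are lower at week 4 than at week 8.

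The HFD minus CD difference of Amy1 in liver (log2, SE, 4 and 4 mice) was 0.19 ± 0.25, 0.28 ± 0.11 and -0.06 ± 0.10 in weeks 4, 8 and 12 (limma adjusted p = 0.73, 0.15 and 0.72). In weeks 16, 20 and 24 it was -0.05 ± 0.13, -0.24 ± 0.17 and -0.07 ± 0.20 (limma adjusted p = 0.87, 0.58 and 0.91). The same limma fits called 0.0506%, 7.49%, 10.6%, 7.43%, 2.47% and 0.837% of all genes tested in weeks 4 to 24. The difference between the late and the early diet effects of Amy1 was -0.26 ± 0.15 (adjusted p = 0.71), in a contrast that called 0.175% of all genes. In CD livers the late minus early difference was 0.16 ± 0.09 (adjusted p = 0.20, 22.7% of all genes called), and without CD106, the high liver of week 4, it was 0.24 (adjusted p = 0.015). In order of the means, liver Amy1 ran from 155.8 ± 15.8 FPKM (SD of 4 livers) in HFD mice of week 8 to 76.8 ± 28.3 in CD mice at week 4. Amy2a5 and Amy2a4 passed neither contrast in liver, with late minus early diet effects of 0.57 ± 0.63 and -0.09 ± 0.16 (adjusted p = 0.87 and 0.92) and CD differences of 0.12 ± 0.48 and 0.23 ± 0.12 (adjusted p = 0.88 and 0.15). Without the 2 HFD livers of week 24 described next, which held 5 FPKM or more of Amy2a5, the Amy1 difference of that week was 0.30 (adjusted p = 0.34). Among neighbours in the order of the Amy1 means, only CD at week 20 (113.99 ± 11.04) and CD at week 24 (101.5 ± 4.85) were further apart than the larger of their SDs.

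The pancreatic Amy2a5 reached 1 FPKM or more in 12 livers, among them all 4 CD livers of week 16 (1.49 to 22.3 FPKM). It was 30.9 and 12.2 FPKM in the livers of CD306 and CD304 at week 12, 22.3 in CD407 at week 16, and 14.2 and 9.97 in HFD616 and HFD617 at week 24, and the other 7 livers at or above 1 FPKM held 1.09 to 2.63. These livers also held other pancreatic transcripts. CD306 had 2467 FPKM of the insulin gene Ins2 and 7.01 of the carboxypeptidase Cpa1, CD407 had 1738 and 3.03, and CD304 had 257 and 1.63. HFD617 had 272 FPKM of Ins2 and 1.18 of Cpa1, while HFD616 had 8.80 of Ins2 and 3.87 of Cpa1, so endocrine and acinar transcripts were not in a fixed ratio. In the 12 livers with Amy2a5 at or above 1 FPKM, the 9 acinar markers summed to 2.42 to 79.8 FPKM and the 7 endocrine markers to 0.89 to 3782, and in the other 36 to 0.32 to 4.38 and 0 to 64.4. Ptf1a was at 0 in all 48 livers. Ins2 also differed by week. At week 4 it was 23.2 to 42.1 FPKM in CD and 19.4 to 30.2 in HFD livers. At week 24 it was 4.28 to 48.1 in CD and 4.18 to 272 in HFD livers, and at week 20 it was 0 in every liver.

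**Figure D5:**
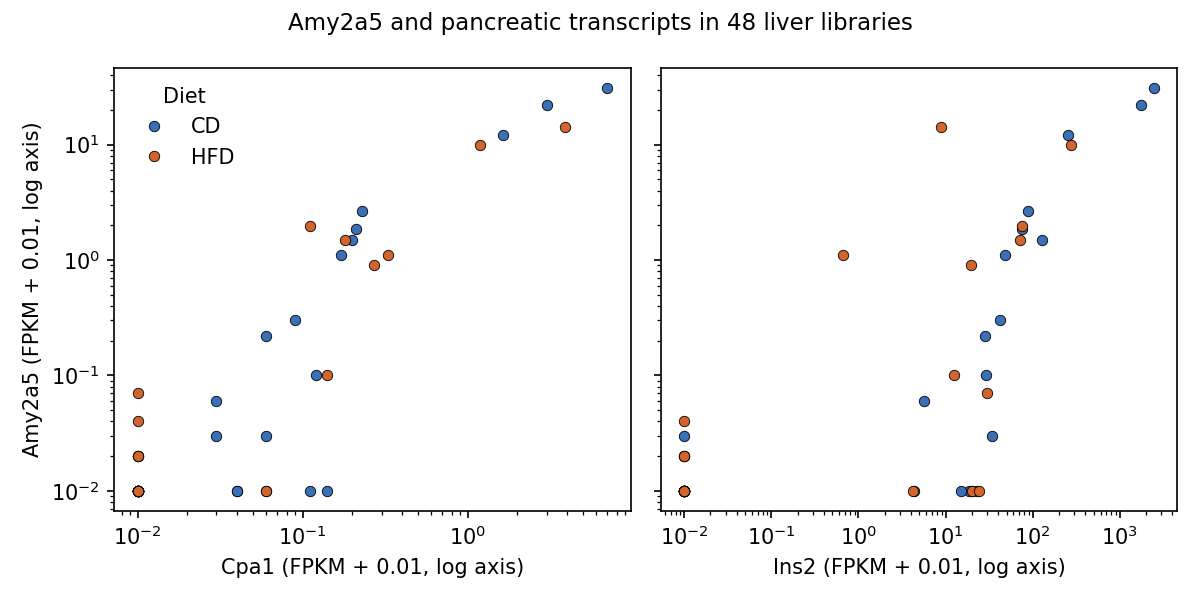
Amy2a5 against Cpa1 and against Ins2 in 48 liver libraries (FPKM + 0.01, log axes); each point is 1 mouse. Amy2a5 and Cpa1 are high in the same livers, up to 30.9 and 7.01 FPKM, while HFD616 combines 14.2 FPKM of Amy2a5 with 8.80 of Ins2.

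Over the 48 livers, Amy2a5 correlated with Cpa1 at 0.94, with Ins2 at 0.73 and with Amy1 at 0.000975 on the log2(FPKM + 1) scale, as a description of points from 12 groups. Amy1 was 65.6 to 172 FPKM in the 12 livers with Amy2a5 and 56.9 to 173 in the other 36. Amy2a5 and Amy2a4 passed the filter in liver at week 16 alone, where the CD livers held 2.63, 1.49, 1.86 and 22.3 FPKM of Amy2a5 and the HFD livers 1.47, 1.96, 0 and 0. The HFD minus CD difference of -1.59 ± 0.79 missed the threshold (adjusted p = 0.30), as did that of Amy2a4 of -0.51 ± 0.27 (adjusted p = 0.31). Ins2 was 75.7 to 1738 FPKM in the 4 CD livers of that week, 71.4 and 76.2 in the HFD livers with Amy2a5 and 0 in the HFD livers without it. The part of pancreatic RNA in these liver values was not tested.

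The liver genes most like Amy1 in level were Etfa, a subunit of the electron transfer flavoprotein (0.88), Acbd5, a peroxisomal acyl-CoA binding protein (0.88), the small GTPase Rap1a (0.87), the translation factor subunit Eif3e (0.87) and the mitochondrial NAD kinase Nadk2 (0.86), by Pearson correlation over 48 livers among 10405 genes. The amylase genes were left out of this search, which took genes at 1 FPKM or more in 12 or more livers. Acinar genes such as Cpa1, Prss2 and Pnlip reached 1 FPKM in 5 livers each and did not enter it. The search therefore cannot tell how Amy1 relates to them.

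Genes of starch and glycogen metabolism passed the test in liver in 5 of the 6 weeks. Of 19 listed genes, 15 or 16 were tested in each week, and in HFD mice 0, 4, 5, 5, 1 and 2 of them rose in weeks 4, 8, 12, 16, 20 and 24 and 1 fell, in week 12. Over all genes 0.0506%, 7.49%, 10.6%, 7.43%, 2.47% and 0.837% were called in these weeks, in either direction. The medians of the list were 0.15, 0.28, 0.33, 0.23, 0.08 and 0.30 in weeks 4 to 24, against 0.09, 0.04, 0.11, 0.09, 0.07 and 0.06 over all genes. Treh, the enzyme that splits trehalose into glucose, was 2.11 to 2.58 FPKM in CD and 4.74 to 5.77 in HFD livers at week 16, without overlap. Treh rose in 5 weeks, by 1.49 ± 0.34, 1.01 ± 0.14, 0.94 ± 0.09, 1.00 ± 0.22 and 1.14 ± 0.17 in weeks 8, 12, 16, 20 and 24 (adjusted p = 0.037, 0.0063, 0.0003, 0.043 and 0.019). At week 4, where Treh was not called, its levels were 2.22 to 3.29 FPKM in CD and 1.64 to 2.30 in HFD livers. The glycogen branching enzyme Gbe1 was 25.2 to 28.1 FPKM in CD and 42.0 to 57.4 in HFD livers at week 16, a rise of 0.91 ± 0.11 (adjusted p = 0.0012), and it also rose at weeks 8, 12 and 24. Pgm1, a phosphoglucomutase between glycogen and glycolysis, rose at weeks 8, 12 and 16, with 0.75 ± 0.12 at week 16 (adjusted p = 0.0052). The liver glycogen phosphorylase, Pygl, rose at week 12 by 0.59 ± 0.16 (adjusted p = 0.048), when the glycogen-binding protein Stbd1 fell by 0.72 (adjusted p = 0.015). Ugp2, which makes the glucose donor of glycogen synthesis, and Gyg, the primer of glycogen synthesis, also rose at week 16. Without single libraries the number of these genes called ranged from 0 to 1, 0 to 4, 1 to 9, 3 to 5, 0 to 2 and 0 to 2 over the same weeks. The Treh calls of weeks 12 and 16 and the Gbe1 call of week 16 held whichever library was left out, while the Treh calls of weeks 8, 20 and 24 were lost in 7, 6 and 4 of 8 such fits. Calls were also lost in 4, 6 and 6 of 8 fits for Gbe1 in weeks 8, 12 and 24, in 6 and 5 of 8 for Pgm1 in weeks 8 and 12, in 7 of 8 for Pygl (adjusted p up to 0.14) and for Gyg, and in 1 of 8 for Stbd1 and for Ugp2. Without the livers of HFD616 and HFD617, which leaves 2 HFD livers at week 24, the differences were 1.08 for Treh and 0.83 for Gbe1 (both adjusted p = 0.19).

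Listed genes from beside the cluster were low in both tissues. Rnpc3, which encodes an RNA-binding protein of the minor spliceosome, was 2.27 to 9.51 FPKM in islets and 0.95 to 5.84 in liver, and the collagen gene Col11a1 was at most 0.15 FPKM in either tissue.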

How the data were processed

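RNA was sequenced from islets and liver of 48 mice (96 libraries, 4 per tissue, diet and week). The FPKM values were deposited by the authors, whose processing notes name HISAT2 2.0.4, Bowtie2 2.2.5, RSEM 1.1.12, DESeq2 and the genome GRCm38.p5. RSEM divides reads that fit several transcripts by an estimate, which bears on the near-identical Amy2 genes. The table holds 21990 genes, 1835 of them without values, and gives no read counts, so the depth of each library is unknown and no counting interval is given. The authors' group averages, fold changes, p and q values, module and cluster assignments and pathway columns were not used, and 0 other columns of single samples were left out.

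Groups were taken from the submitters' labels. Differences were tested on log2(FPKM + 1) with limma 3.58.1 in R 4.3.3 (trend and robust moderation) among genes with 1 FPKM or more in 4 or more libraries, with Benjamini-Hochberg adjustment over all genes tested and a threshold of 0.05. Tested were HFD against CD in liver by week, the late against the early diet effect in liver, islets against liver in CD mice, and late against early weeks within CD islets and within CD livers. HFD against CD in islets is given as means of 4 libraries with a standard error, and limma calls over all genes in that contrast are given as background only. The SE of a limma result is that of its moderated fit. The scripts were tested on simulated data. Week is confounded with the age of the mice and with any batch of preparation, which cannot be told apart, and p-values measure the spread between mice.

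The genes and lists were chosen with earlier results of these data known. Named are the 6 amylase genes, genes of lists of acinar proteases, lipases, other secretory products and transcription factors, of starch and glycogen metabolism and of locus neighbours, the 10 genes most correlated with the Amy2 sum in islets and the 5 most correlated with Amy1 in liver. Some genes of the starch and glycogen list are counted but not reported here by name. Alternatives were a pseudocount of 0.1, no filter, median ratio scaling, insulin genes left out of the library total, 1 fit of all liver groups, the mouse as a block, other reference enzymes and leaving out each library. Leaving out the 5 livers with 5 FPKM or more of Amy2a5 was added after seeing the data and is not applied to Amy2a5 itself. Promoter sequences are from RefSeq (GRCm38.p6) and coding sequences from GENCODE vM21 on GRCm38. Python 3.11.15, pandas 2.3.3, numpy 2.4.6, Biopython 1.88 and matplotlib 3.10.9 were used.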

Additional observations from a re-analysis of the deposited data

Results flagged for a closer look

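In 17 of 119 groups of 4 libraries, 1 library lay far from the other 3 by the gap to its nearest neighbour over the group's range, by Dixon's test at the 95% level. The limit gives about 1 of 20 groups by chance only for independent, normally distributed values. Here the members share libraries and move together, and many liver values lie near 0, so the count cannot be set against that share. The 17 include 4 groups in which the other 3 values were tied (HFD112 in islets, HFD217, CD507 and HFD511 in liver), where any other value stands apart by this measure, so these are no test. In islets, Amy2a5 was 9552 FPKM in HFD611 at week 24 against 4215 to 4809 in the other 3 HFD mice, and Amy2a4 was 312.9 against 136 to 153 in the same library. CD304 at week 12 stood above its group for Amy2a4 (1404 against 519 to 652) and Amy2a2 (5.75 against 1.90 to 2.07), and it also had the highest Amy2a5 of all islet libraries. Amy2a2 was 4.46 in CD608 at week 24 against 1.52 to 2.01. Amy2b was 2.80 in CD205 at week 8 against 5.04 to 5.27. Amy2a1 was listed at 0 in HFD112 at week 4, where the others held 0.10, and at 0 in HFD318 at week 12, where the others held 0.07 to 0.08. The relative Amy2 level was 5.50 in CD407 at week 16 against 5.72 to 5.73, which still lies above all HFD libraries of that week.

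In liver, Amy2a5 was 22.3 FPKM in CD407 at week 16 against 1.49 to 2.63, 1.09 in HFD316 at week 12 against 0 to 0.01, and 0.89 in HFD113 at week 4 against 0 to 0.06. It was 0.03 in HFD217 at week 8 and 0.01 in CD507 and in HFD511 at week 20, in groups otherwise listed at 0. Amy2a4 in liver was 1.01 in HFD113 at week 4 against 0.21 to 0.34 and 0.25 in HFD518 at week 20 against 0.13 to 0.15. No cause of these values was tested.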

How the results depend on the processing

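Among values that answer a comparison, 476 kept their direction and side of the threshold, or moved by less than their spread, under an alternative setting. Of the tested values, 23 changed sign, 13 lost and 1 gained a call. Of the islet HFD minus CD differences, 3 moved by more than their spread, and their changes of sign were not counted. Without single libraries, the Amy2 sum ran from -1.29 to 0.07 at week 8 and from -0.26 to 0.32 at week 20. Among values of single starch and glycogen genes called in liver and the counts of such calls, 181 kept their call or stayed within 1.5 times, 89 lost their call and 34 counts moved by more. The relative Amy2 difference moved from -1.26 to -1.37 (proteases alone) and -0.96 (lipases alone) at week 12, and from -1.17 to -0.97 (lipases alone) at week 16, each still without overlap. In CD islets, the late minus early difference of Amy2a1 was 0.83 with a pseudocount of 0.1 (limma adjusted p = 0.061, call lost), and that of Amy2a4 turned from 0.0061 to -0.067 with median ratio scaling. Without the livers that held 5 FPKM or more of Amy2a5, the week 24 difference of liver Amy1 turned from -0.07 to 0.30 (adjusted p = 0.34). Leaving out 1 library at a time gave, in CD islets, 0.40 to 0.63 for Amy2a1 (call lost in 12 of 24), -0.090 to 0.13 for Amy2a4 and -0.20 to 0.03 for Amy2a5. In CD livers it gave 0.12 to 0.24 for Amy1 and -0.13 to 0.43 for Amy2a5. For HFD against CD in liver it gave -0.15 to 0.022 for Amy1 at week 16 and -0.21 to 0.11 at week 24. With the mouse as a replicate block, the islet minus liver difference in CD mice was -4.36 for Amy1 (adjusted p = 8.1e-34) and 12.83 for Amy2a5 (adjusted p = 2.2e-34), and the block changed no call. The libraries of a mouse had a consensus correlation of 0.026. The causes of these changes were not tested. FPKM without read counts leave the precision of low values unknown, and values are given to 2 decimals, so members near 0 carry little information.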
